A study of Mus musculus with 64 samples.

Results

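The 10 genes described here are established transcriptional targets of the glucocorticoid receptor: Fkbp5, Tsc22d3, Zbtb16, Mt1, Mt2, Cdkn1a, Sgk1, Nfkbia, Pik3r1, and Cebpd. They were chosen by name as known targets, not by a threshold on their values, but with earlier results of these data known. Each was looked up among the 55401 gene identifiers of the count table. All 10 were found, and all 10 were among the 15241 genes with enough counts to be tested. Glucocorticoids are adrenal steroids that bind the glucocorticoid receptor in the cytoplasm, after which the receptor enters the nucleus and binds DNA near its target genes. Their blood level follows a daily rhythm that in nocturnal rodents peaks around the onset of the dark phase, and it also rises with exercise and stress. In skeletal muscle the hormone restrains insulin signaling and protein synthesis and promotes protein breakdown, and several of the genes described here take part in those responses.

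Gastrocnemius muscle RNA was sequenced from 64 mice in 8 groups of 8, each with 4 females and 4 males. The groups combine 2 genotypes, 2 times of day, and 2 treatments. The library of mouse 44, an exercised knockout at ZT3, held only 382 counts and was left out, which left 63 libraries. HIF1α KO mice carried a floxed Hif1a exon 2 and a Cre recombinase under the human skeletal actin (HSA) promoter, and fl/fl littermates without Cre (labelled wt) were the controls, so both genotypes carried the floxed alleles. All were bred on C57BL/6JBomTac for 2 to 9 generations and were 12 to 18 weeks old. Mice ran on a treadmill for 60 min, reaching 16 m/min at an incline of 5%, or had a sham treatment (sedentary), at zeitgeber time 3 (ZT3, in the light phase of a 12 h light and 12 h dark cycle) or ZT15 (in the dark phase), and muscle was taken 3 h after the run. The HSA promoter acts in muscle fibers, so vessels, connective tissue, nerve, and blood in the knockout muscle keep Hif1a. In bulk tissue, fewer cells of a type and less RNA per cell cannot be told apart. No measurement of circulating corticosterone was analysed here, and the comparisons ask only how the transcripts of its target genes differed.

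The control regions of 3 of the genes are shown because they carry the DNA motifs through which steroid or metal is known to act on them. RefSeq promoter windows on GRCm38.p6, from 250 bases before to 50 bases after an annotated start, covered 8 of the 10 genes in 17 windows. Both strands were searched for the hexamer AGAACA of the glucocorticoid response element, for that hexamer followed after 3 bases by its reverse complement (the complete inverted repeat), for the metal response element core TGCACNC or TGCGCNC, for the E-box CACGTG, and for the hypoxia core ACGTG, which lies inside the E-box. Only the 250 bases before each start are printed, 5′ to 3′, with the matches in capitals. In the first the capitals mark the complete inverted repeat, and in the others they mark the metal response core.
Sgk1, chr10:21993640-21993889, plus strand: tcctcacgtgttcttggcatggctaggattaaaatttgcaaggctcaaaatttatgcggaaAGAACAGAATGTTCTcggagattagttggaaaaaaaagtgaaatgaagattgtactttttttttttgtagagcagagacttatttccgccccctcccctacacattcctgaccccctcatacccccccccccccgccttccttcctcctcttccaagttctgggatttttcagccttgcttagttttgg
Mt1, chr8:94178839-94179088, plus strand: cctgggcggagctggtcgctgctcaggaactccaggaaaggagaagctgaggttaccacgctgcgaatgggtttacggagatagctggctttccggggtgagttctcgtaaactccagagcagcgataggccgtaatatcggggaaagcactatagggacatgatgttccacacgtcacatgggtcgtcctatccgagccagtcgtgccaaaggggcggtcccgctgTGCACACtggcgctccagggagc
Mt2, chr8:94172368-94172617, plus strand: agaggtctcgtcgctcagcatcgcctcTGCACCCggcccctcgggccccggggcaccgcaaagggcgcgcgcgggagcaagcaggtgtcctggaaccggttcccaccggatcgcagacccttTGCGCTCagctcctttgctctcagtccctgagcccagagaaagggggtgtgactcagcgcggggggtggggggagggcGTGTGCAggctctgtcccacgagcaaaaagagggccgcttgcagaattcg
The complete inverted repeat was found in 3 of 32851 RefSeq windows (0.00913%), and this Sgk1 window is one of them. The single hexamer was in 19% of all windows and in 4 of the 17, which belong to Tsc22d3 and Sgk1. The metal response core was in 25.7% of all windows and in 5 of the 17, which belong to Mt1, Mt2, Sgk1, Nfkbia, and Pik3r1. It occurred 4 times in the window of Mt2, 3 of them in the bases printed, and 3 times in that of Mt1, 1 of them in the bases printed. The E-box was in 7.15% of all windows, and Fkbp5 and 1 Sgk1 window held it. The hypoxia core was in 19.6% of all windows, and windows of Fkbp5, Mt1, and Sgk1 held it. A match is a description of the letters only, and receptor binding was not measured here.

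Total counts per library ranged from 2359780 to 40377963 (median 16236352), and levels are given as CPM, which are counts scaled to a common library size after TMM normalization. Hif1a itself was at 36.4 ± 6.31 CPM (SD, n = 32) in fl/fl and 36.4 ± 4.804 CPM (SD, n = 31) in HIF1α KO muscle, with a log2 difference of 0.00 (adjusted p = 0.979, SE 0.0492). A count over the whole gene also takes reads outside the deleted exon, so it does not check the genotype labels. The 5 myofiber markers summed to 190300 to 317200 CPM, and their log2 fold changes for time of day, exercise, and genotype lay between −0.14 and 0.14 without any call. The 4 lymphocyte markers were at or near 0 (summed at most 0.408 CPM). Of the markers of adipocytes, red blood cells, endothelium, and macrophages, none was called in these 3 averages, while Pdgfra (fibroblast marker) was called for time of day and for genotype, Scx (tendon) and Mbp (Schwann cell) were called for genotype, and all 4 adipocyte markers were lower in males. Their part in the results was not tested.

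A few libraries stood apart on these genes. Mouse 8, a male fl/fl mouse that was sedentary at ZT15, had the highest level of its group for 9 of the 10 genes and the highest of all 63 libraries for 5 of them. Its Mt1 level was 128.5 CPM where the next of its group was 37.9, its Cdkn1a level 19.5 CPM where the next was 5.74, and its Cebpd level 46.8 CPM where the next was 11.4. Pik3r1 was the exception, since mouse 8 had the lowest value of its group at 74.7 CPM. Mouse 37, a male fl/fl mouse exercised at ZT15, had the highest level of all libraries for Fkbp5 (145.9 CPM), Sgk1 (307.7 CPM), and Cebpd (56.4 CPM). Averaged values that changed call, sign, or size by over 1.5 times without these 2 mice are given both ways below.

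**Figure D1:**
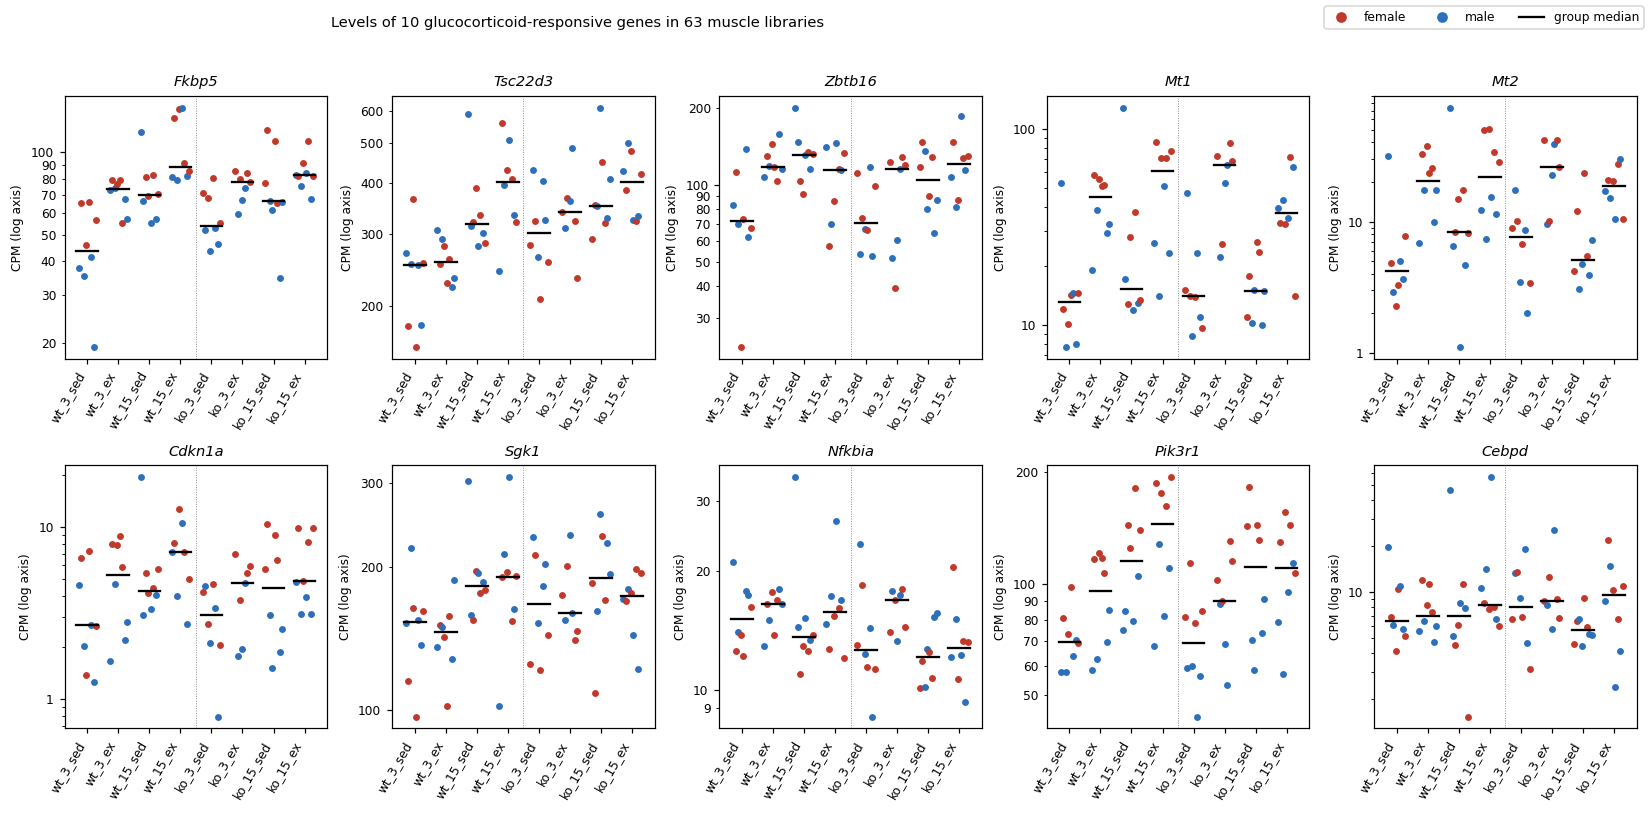
Level of each gene (CPM, log axis) in the 8 groups, 1 point per library, females in red and males in blue, with the group median as a black line and a dotted line between fl/fl (wt) and HIF1α KO (ko) groups. Mt1 and Mt2 medians are higher in exercised than in sedentary groups throughout, Pik3r1 points split by sex, and mouse 8 is the high male point in wt_15_sed (Mt1 at 128.5 CPM).

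Per kilobase of exon, the mean level over all 63 libraries was highest for Tsc22d3 (77.5 CPM per kb), followed by Sgk1 at 35.2, Mt2 at 28.1, Mt1 at 27.4, Zbtb16 at 19.97, Pik3r1 at 9.997, Nfkbia at 9.28, Fkbp5 at 7.79, Cebpd at 2.63, and Cdkn1a at 1.44 CPM per kb. On the log2 CPM scale, the spread between mice of the same group was widest for Mt2 (SD 1.00), Cebpd (0.82), Cdkn1a (0.79), and Mt1 (0.78), and it was narrowest for Tsc22d3, Sgk1, and Nfkbia (0.31 each). These SDs include the difference between the sexes, which the model takes out, and the smallest SE for time of day was that of Pik3r1 (0.0629).

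Time of day was compared as ZT15 minus ZT3, averaged over both genotypes and treatments and given as a log2 fold change or log2 difference. This asks whether the targets differed between the 2 times, and 2 times alone cannot show a daily rhythm. ZT3 and ZT15 name the time of the run or sham treatment, and muscle was taken 3 h after the run. Of the 10 genes, 6 were higher at ZT15 (Fkbp5, Tsc22d3, Pik3r1, Cdkn1a, Sgk1, and Zbtb16) and none was lower, while 8.02% of all genes tested were called in either direction and 4.09% were called higher. The median log2 fold change of the 10 genes was 0.30, and over all genes it was 0.00. Without mice 8 and 37, 3 of the 10 were called (Fkbp5, Tsc22d3, and Pik3r1), and 1163 of 15297 genes.

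Fkbp5 encodes a cochaperone that binds the receptor complex and lowers its affinity for hormone, so its induction is a negative feedback. In sedentary fl/fl mice it ranged from 19.4 to 66.0 CPM (median 43.5) at ZT3 and from 55.2 to 119 CPM (median 69.8) at ZT15. Among fl/fl mice that had run it ranged from 55.3 to 79.4 CPM (median 73.4) at ZT3 and from 79.5 to 145.9 CPM (median 88.5) at ZT15. All 8 exercised mice at ZT15 were above all 8 exercised mice at ZT3, the only one of the 4 time comparisons in which the 2 groups did not overlap for this gene. In HIF1α KO mice the medians were 53.9 and 66.2 CPM in sedentary and 77.9 and 82.5 CPM in exercised muscle at ZT3 and ZT15, and these ranges overlapped. The averaged log2 difference was 0.47 (adjusted p = 2.14e-05, SE 0.0789), and 0.39 (adjusted p = 2.945e-05) without mice 8 and 37.

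Tsc22d3, which encodes the leucine zipper protein GILZ, a mediator of anti-inflammatory glucocorticoid effects, was the most abundant of the 10. Over both genotypes and treatments it ranged from 159 to 486 CPM (median 269) at ZT3 and from 243 to 612 CPM (median 352) at ZT15. At ZT15, 31 of 32 mice were above the ZT3 median, although the ranges overlapped. The averaged log2 difference was 0.43 (adjusted p = 0.000161, SE 0.0805). It was higher at ZT15 in each of the 4 successive blocks of 16 mouse numbers, by 0.36 to 0.48 on the log2 scale.

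Pik3r1 encodes the p85 regulatory subunits of phosphoinositide 3-kinase, whose excess over the catalytic subunit dampens insulin signaling. It had the smallest p of the 10 for time of day. It ranged from 43.8 to 130 CPM (median 78.1) at ZT3 and from 57.2 to 194 CPM (median 119) at ZT15, and 13 of 32 mice at ZT15 were above every mouse at ZT3. The averaged log2 difference was 0.53 (adjusted p = 2.75e-09, SE 0.0629), and it was 0.55 without mice 8 and 37.

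The other 3 genes called for time of day were nearer to the threshold. Cdkn1a, which encodes the cyclin-dependent kinase inhibitor p21, ranged from 0.792 to 8.90 CPM (median 3.79) at ZT3 and from 1.52 to 19.5 CPM (median 4.94) at ZT15. The log2 difference was 0.64 (adjusted p = 0.0255, SE 0.187) and fell to 0.42 (adjusted p = 0.104) without mice 8 and 37. Sgk1, a serum- and glucocorticoid-inducible kinase that restrains muscle protein breakdown, ranged from 97.1 to 233 CPM (median 152) at ZT3 and from 102 to 307.7 CPM (median 182) at ZT15. Its log2 difference was 0.22 (adjusted p = 0.0852, SE 0.0788), and 0.16 (adjusted p = 0.23) without those mice. Zbtb16, which encodes the zinc finger transcription factor PLZF, ranged from 23.2 to 157 CPM (median 103) at ZT3 and from 57.7 to 200.3 CPM (median 116) at ZT15. Its log2 difference was 0.34 (adjusted p = 0.0852, SE 0.121), and 0.29 (adjusted p = 0.17) without them. The ranges at ZT3 and ZT15 overlapped for these 3 genes, and 7, 3, and 2 of 32 mice at ZT15 were above every mouse at ZT3 for Cdkn1a, Sgk1, and Zbtb16.

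Mt1 and Mt2, which encode metallothioneins that bind zinc and copper, did not pass for time of day. Their log2 fold changes were 0.18 (adjusted p = 0.734, SE 0.218) and 0.25 (adjusted p = 0.682, SE 0.267), and without mice 8 and 37 they were −0.048 and −0.026. Nfkbia, which encodes the NF-κB inhibitor IκBα, had −0.09 (adjusted p = 0.604, SE 0.0833), and −0.18 (adjusted p = 0.121) without the 2 mice. Cebpd, which encodes a transcription factor of stress and acute phase responses, had 0.13 (adjusted p = 0.822, SE 0.228), which turned to −0.24 (adjusted p = 0.557) without the 2 mice.

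In single pairs of groups, the time of day comparison passed for Fkbp5, Tsc22d3, and Pik3r1 in sedentary fl/fl mice (1.88% of all genes called) and for these 3 genes in exercised fl/fl mice (1.18% called). In sedentary HIF1α KO mice only Pik3r1 passed (0.479% called), and in exercised HIF1α KO mice none of the 10 did (0.663% called). In that last comparison 1 of the 10 and 1623 of all 15241 genes had an unadjusted p under 0.05 with edgeR. DESeq2 also called 0 of the 10 there, and 200 of 12874 genes. Fkbp5 had log2 fold changes of 0.76 (adjusted p = 0.00421), 0.57 (adjusted p = 0.0640), 0.36 (adjusted p = 0.725), and 0.19 (adjusted p = 0.661) in this order of groups. Tsc22d3 had 0.56 (adjusted p = 0.0831), 0.63 (adjusted p = 0.0353), 0.33 (adjusted p = 0.843), and 0.20 (adjusted p = 0.652), and Pik3r1 had 0.66 (adjusted p = 0.00119), 0.57 (adjusted p = 0.0106), 0.59 (adjusted p = 0.00555), and 0.30 (adjusted p = 0.398). Passing in fl/fl and not in HIF1α KO mice does not show that the genotypes differ, and the difference itself is tested below as the interaction. In the sedentary fl/fl comparison Tsc22d3 did not pass without mice 8 and 37, with no filter beyond 1 count, or without the sex term. DESeq2 also called Zbtb16 there (4 of the 10, and 452 of 14351 genes). Zbtb16 was also called there with the block of 16 mouse numbers, the mitochondrial rRNA share, or at least 10 counts in every library. In the exercised fl/fl comparison Fkbp5 did not pass without mice 8 and 37 or without the 3 shallowest libraries. It also did not pass there with no filter beyond 1 count or without the sex term. Tsc22d3 did not pass there with the block of 16 mouse numbers or the mitochondrial rRNA share in the model, or with no filter beyond 1 count. Without the sex term Pik3r1 did not pass in either fl/fl comparison or in sedentary HIF1α KO mice.

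**Figure D2:**
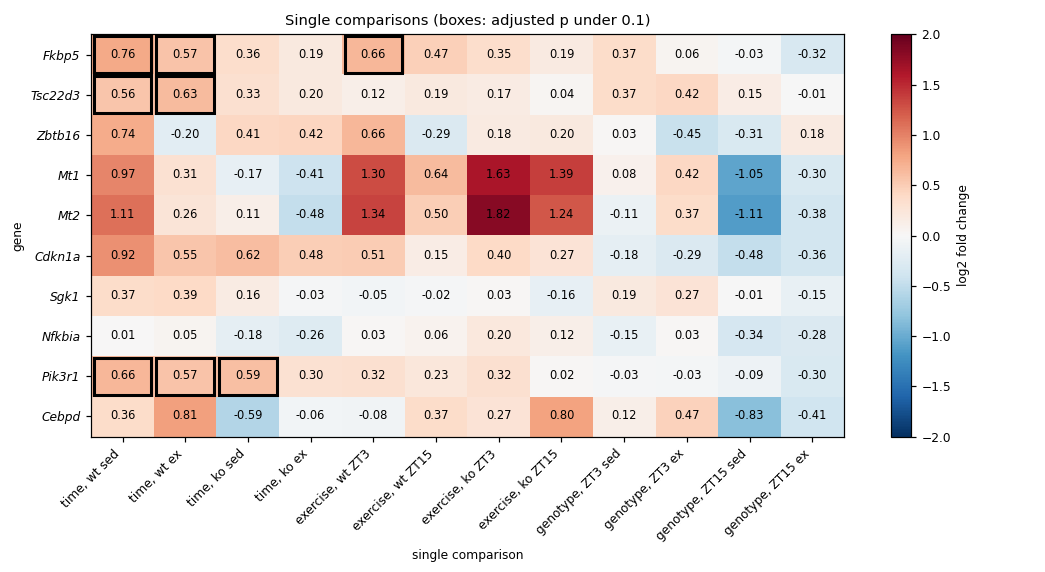
Log2 fold change (color and number) of each gene in the 12 single comparisons, ZT15 minus ZT3, exercised minus sedentary, and HIF1α KO minus fl/fl, with a black box where the adjusted p was under 0.1. Boxes are found for Fkbp5, Tsc22d3, and Pik3r1 in the fl/fl time of day columns, for Pik3r1 in sedentary HIF1α KO mice, and for Fkbp5 in fl/fl mice exercised at ZT3.

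Exercise was compared with sedentary treatment 3 h after the run, averaged over genotypes and times. Of the 10 genes, 4 were higher after exercise (Mt1, Mt2, Fkbp5, and Pik3r1) and none was lower, against 2.84% of all genes called in either direction and 2.06% called higher. The same 4 were called without mice 8 and 37, and 474 of 15297 genes. The median log2 fold change of the 10 was 0.28, and over all genes it was 0.00.

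Of the 10, the metallothioneins had the highest fold changes. Mt1 ranged from 7.72 to 128.5 CPM (median 14.1) in the 32 sedentary mice and from 13.9 to 85.5 CPM (median 50.8) in the 31 exercised mice. Only 2 sedentary mice were above the exercised median, and 29 exercised mice were above the sedentary median. The log2 fold change was 1.24 (adjusted p = 0.000233, SE 0.223), a factor of 2.36, and 1.41 (adjusted p = 1.64e-06) without mice 8 and 37.

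Mt2 ranged from 1.11 CPM (3 counts, in mouse 41) to 73.8 CPM (median 6.01) in sedentary and from 6.82 to 50.9 CPM (median 20.8) in exercised mice. All 31 exercised mice were above the sedentary median, and 3 sedentary mice were above the exercised median. The log2 difference was 1.23 (adjusted p = 0.00451, SE 0.272), and 1.47 without mice 8 and 37. Both genes were higher after exercise in all 4 blocks of mouse numbers, Mt1 by 0.89 to 1.76 and Mt2 by 0.99 to 2.17 on the log2 scale.

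**Figure D3:**
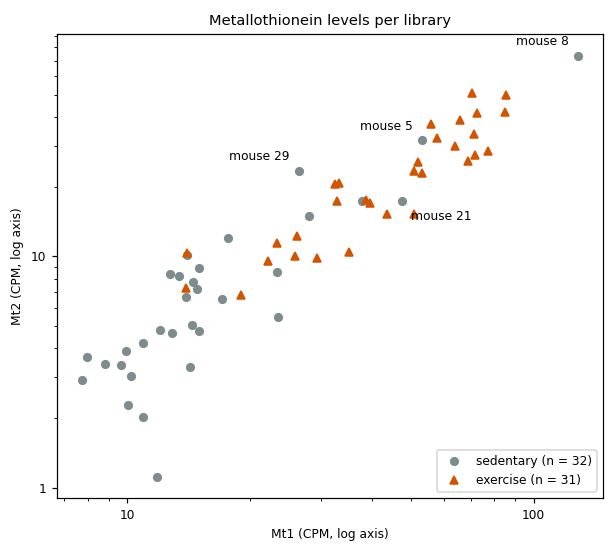
Mt2 level against Mt1 level (CPM, log axes), 1 point per library, sedentary mice as grey circles (n = 32) and exercised mice as orange triangles (n = 31). Most sedentary mice lie below the exercised ones on both axes, and the labelled sedentary mice 8, 5, 21, and 29 lie among or above the exercised mice.

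Fkbp5 ranged from 19.4 to 121 CPM (median 65.2) in sedentary and from 55.3 to 145.9 CPM (median 79.9) in exercised mice, and 28 of 31 exercised mice were above the sedentary median. The log2 difference was 0.42 (adjusted p = 0.000352, SE 0.0787), and the difference had the same sign in all 4 blocks (0.10 to 0.58). Pik3r1 ranged from 43.8 to 183 CPM (median 80.1) in sedentary and from 53.2 to 194 CPM (median 107) in exercised mice. Its log2 difference was 0.22 (adjusted p = 0.0365, SE 0.0627), and 1 of the 4 blocks had the opposite sign (−0.03). These ranges overlapped for both genes.

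The 6 other genes did not pass for exercise. Cebpd had a log2 difference of 0.34 (adjusted p = 0.649, SE 0.228), which was 0.16 without mouse 37 alone and 0.52 without mouse 8 alone. Cdkn1a had one of 0.33 (adjusted p = 0.543, SE 0.186), and without mouse 8 alone Cdkn1a passed at 0.50 (adjusted p = 0.0818). Zbtb16 had 0.19, Tsc22d3 0.13, Nfkbia 0.11, and Sgk1 −0.05, with adjusted p from 0.603 to 0.907. For Tsc22d3 the 95% interval of the log2 fold change was −0.03 to 0.29, and for Sgk1 it was −0.21 to 0.10, so exercise differences larger than these were outside the interval.

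In single comparisons only Fkbp5 in fl/fl mice at ZT3 passed, with a log2 difference of 0.66 (adjusted p = 0.0532, SE 0.158), where 0.236% of all genes were called. There all 8 exercised mice were above the sedentary median. With the block of 16 mouse numbers in the model it no longer passed, and this comparison then had 0 of the 10 and 31 of 15241 genes called. No gene of the 10 passed in fl/fl mice at ZT15 (0% of all genes called, 1406 at an unadjusted p under 0.05), in HIF1α KO mice at ZT3 (0.131% called), or in HIF1α KO mice at ZT15 (0.0591% called). In these comparisons 1, 4, and 2 of the 10 had an unadjusted p under 0.05 with edgeR, and DESeq2 called 0, 1 (Mt1), and 0. Over all 15241 genes the counts at that p were 1406, 772, and 845. DESeq2 called 16 of 6967, 62 of 14351, and 37 of 14351 genes with an adjusted p. Mt1, in fl/fl mice at ZT3 and ZT15 and then in HIF1α KO mice at ZT3 and ZT15, had exercise values of 1.30, 0.64, 1.63, and 1.39, with adjusted p of 0.231, 0.638, 0.187, and 0.497. Mt2 had 1.34, 0.50, 1.82, and 1.24 in the same order, with adjusted p from 0.282 to 0.876. The lowest of these values, in fl/fl mice at ZT15, was in the comparison whose sedentary group holds mouse 8.

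**Figure D4:**
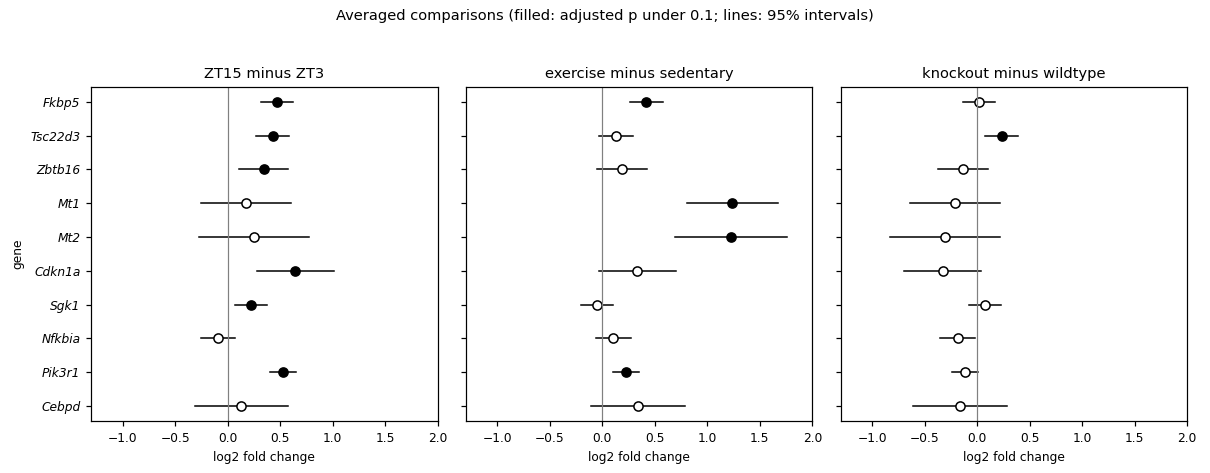
Log2 fold change of each gene for time of day (ZT15 minus ZT3), exercise (exercised minus sedentary), and genotype (HIF1α KO minus fl/fl), each averaged over the other factors, with filled points where the adjusted p was under 0.1 and lines for 95% intervals. The counts of filled points are 6, 4, and 1, Mt1 (1.24) and Mt2 (1.23) lie farthest from 0, and no filled point is below 0.

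Genotype was compared as HIF1α KO minus fl/fl to ask whether loss of HIF1α in muscle fibers changed the target genes. Only Tsc22d3 passed (8.26% of all genes called in either direction, 4.68% called higher). It ranged from 159 to 588 CPM (median 288) in fl/fl and from 207 to 612 CPM (median 340.1) in HIF1α KO mice, and 26 of 31 knockout mice were above the fl/fl median. The log2 difference was 0.23 (adjusted p = 0.0798, SE 0.0803), and 0.28 (adjusted p = 0.0226) without mice 8 and 37. With the block of mouse numbers in the model it was 0.19 and did not pass (adjusted p = 0.139), although knockout mice had the higher mean in all 4 blocks, by 0.08 to 0.31. By group pair it was 0.37 in sedentary and 0.42 in exercised mice at ZT3, and 0.15 and −0.01 at ZT15.

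The other 9 genes did not pass for genotype. Fkbp5 had a log2 difference of 0.02 with a 95% interval of −0.14 to 0.17, Sgk1 0.07 with −0.08 to 0.23 (0.095 and 0.13 without mice 8 and 37), and Pik3r1 −0.11 with −0.24 to 0.01. Nfkbia was at −0.19 (adjusted p = 0.188, SE 0.0835) and at −0.098 without these mice, and 24 of 32 fl/fl mice were above the knockout median. Mt1 and Mt2 were at −0.21 and −0.31 with intervals from −0.64 to 0.22 and from −0.83 to 0.21, and both values were near 0 (0.012 and −0.049) without mice 8 and 37. Cdkn1a was at −0.33 (adjusted p = 0.318), which became −0.16 without mouse 8 alone and −0.11 without both mice. Zbtb16 was at −0.14 (adjusted p = 0.556) and Cebpd at −0.16 (adjusted p = 0.74), the last turning to 0.19 without the 2 mice. None of the 10 passed in a single genotype comparison, neither in sedentary nor in exercised mice at ZT3 (0.4% and 1.43% of all genes called) nor in those at ZT15 (0.0459% and 0.4% called). In these, 2, 1, 3, and 2 of the 10 had an unadjusted p under 0.05 with edgeR, and DESeq2 called 0 in each. Over all 15241 genes the counts at that p were 1038, 2648, 1610, and 1129. DESeq2 called 97 of 15238, 468 of 9331, 19 of 15238, and 94 of 15238 genes with an adjusted p.

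Whether the 3 factors acted on each other was tested by interaction terms. None of the 10 genes and none of the 15241 (0%) passed for time of day with exercise, time of day with genotype, exercise with genotype, or the term for all 3 together, and DESeq2 called none of the 10. At an unadjusted p under 0.05, the counts among the 10 with edgeR were 0, 3, 0, and 0, and over all genes 648, 648, 306, and 2196. The 3 were Fkbp5, Tsc22d3, and Mt1 for time of day with genotype. Fkbp5 had an interaction of −0.40 (adjusted p = 0.981, SE 0.157), which is the ZT15 minus ZT3 difference in HIF1α KO mice minus that in fl/fl mice, Tsc22d3 had −0.33 (adjusted p = 0.981, SE 0.161), and Mt1 had −0.93 (adjusted p = 0.981, SE 0.436). The 95% intervals reached from −0.70 to −0.09, from −0.64 to −0.01, and from −1.78 to −0.07. These intervals are for single genes and are not adjusted. They include mice 8 and 37, both fl/fl mice at ZT15, and the 3 values without these mice are not given here. Without these mice, 0 of the 10 and 0 of all genes tested passed for time of day with genotype. After adjustment over all genes none of the 3 differences between genotypes passed.

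Sex was a term of the model, and the fit also gives the difference of males minus females over all groups. Of the 10, 3 were called and lower in males (Pik3r1, Cdkn1a, and Fkbp5), and none was called higher. In this comparison 25.1% of all genes were called, 2023 higher and 1798 lower in males. At these shares, 3 calls and their common direction say little about the 10 genes as a set. Pik3r1 ranged from 69.0 to 194 CPM (median 123) in 32 females and from 43.8 to 128 CPM (median 70.4) in 31 males. Its log2 difference was −0.73 (adjusted p = 8.63e-15, SE 0.0631). The female mean was higher in 8 of 8 groups, and in 6 of them every female was above every male. In fl/fl mice exercised at ZT15, for example, the 4 females were between 162 and 194 CPM and the 4 males between 68.0 and 128 CPM.

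Fkbp5 was at 82.0 ± 21.8 CPM (SD, n = 32) in females and 65.3 ± 24.4 CPM (SD, n = 31) in males, and its female mean was higher in 8 of 8 groups. The log2 difference was −0.37 (adjusted p = 0.000306, SE 0.0790). Cdkn1a was at 6.29 ± 2.59 CPM (SD, n = 32) in females and 3.86 ± 3.46 CPM (SD, n = 31) in males, with a log2 difference of −0.78 (adjusted p = 0.00141, SE 0.189). Its female mean was higher in 7 of 8 groups, the exception being the sedentary fl/fl group at ZT15 that holds mouse 8. Mt1 and Mt2 did not pass for sex (log2 fold changes −0.08 and −0.33). For Mt1, exercised fl/fl females were all above the exercised fl/fl males, a pattern picked out after the values were seen. At ZT15 the 4 females had 70.7 to 85.5 CPM of Mt1 and the 4 males 13.9 to 50.8 CPM, and at ZT3 they had 50.9 to 57.97 and 19.02 to 38.7 CPM. In exercised HIF1α KO mice the sexes overlapped, at ZT3 with 25.9 to 84.9 CPM in females and 22.2 to 65.7 in males, and at ZT15 with 14.03 to 71.9 and 35.1 to 64.02 CPM, where the male mean was the higher. The interaction of sex with exercise was not tested.

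The receptor and the genes around it were read from lists of other genes of the pathway. Nr3c1, which encodes the glucocorticoid receptor, was at 181 ± 24.9 CPM (SD, n = 31) at ZT3 and 199 ± 26.7 CPM (SD, n = 32) at ZT15. Its log2 difference was 0.13 (adjusted p = 0.111, SE 0.0488) for time of day, 0.05 (adjusted p = 0.8) for exercise, and 0.06 (adjusted p = 0.542) for genotype, so it did not pass in any of the 3. Of 12 tested genes of the receptor and its machinery (of 13 listed), 2 were higher at ZT15 and none was lower (8.02% of all genes called). These were Hsd11b1, the enzyme that regenerates active glucocorticoid inside cells, at 0.36 (adjusted p = 0.00123, SE 0.0775), and H6pd, which supplies that enzyme with its cofactor, at 0.18 (adjusted p = 0.0698, SE 0.0611). None of the 12 passed for exercise or genotype with edgeR (2.84% and 8.26% of all genes called). At an unadjusted p under 0.05 the counts were 0 and 2 of the 12, and 1661 and 3105 of all 15241 genes.

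Of 20 other known glucocorticoid targets, 7 were higher and 4 were lower at ZT15, with a median log2 fold change of 0.05 (8.02% of all genes called). For exercise 5 were higher and none lower (median 0.16, 2.84% of all genes called). For genotype 1 was higher and 2 were lower in HIF1α KO muscle (median −0.08, 8.26% of all genes called). Glul, which encodes glutamine synthetase, was higher at ZT15 by 0.55 (adjusted p = 8.61e-09, SE 0.0671) and after exercise by 0.29 (adjusted p = 0.00541, SE 0.0668). Foxo1, a transcription factor of the fasting and atrophy response, was higher at ZT15 by 0.46 (adjusted p = 0.0368) and after exercise by 0.63 (adjusted p = 0.00478). Trim63, which encodes the muscle ubiquitin ligase MuRF1, was higher by 0.40 (adjusted p = 0.0802) and by 0.62 (adjusted p = 0.00591) in these comparisons. Bcl6, a transcriptional repressor, was higher at ZT15 by 0.43 (adjusted p = 0.00304), while Klf9, a zinc finger factor, was lower at ZT15 (log2 fold change −0.19, adjusted p = 0.000444).

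Each of 4 further lists holds genes that share a second regulator or partner with some of the 10. Over all genes, 8.02% were called for time of day, 2.84% for exercise, and 8.26% for genotype. At an unadjusted p under 0.05 with edgeR the counts over all 15241 genes were 2666, 1661, and 3105. At these shares, few or no calls in so short a list say little about its genes. Of 6 tested genes of the metal response (of 7), none passed for exercise (median log2 fold change 0.08, 0 at an unadjusted p under 0.05 with edgeR). Mt3 in this list was at only 0 to 3.22 CPM, and whether metal acted on Mt1 and Mt2 was not tested. The zinc exporter Slc30a1 was lower at ZT15 (−0.32, adjusted p = 0.000712). The zinc transporter Slc30a2 was lower in HIF1α KO muscle (−0.80, adjusted p = 0.000302), although its level was only 0 to 12.6 CPM. Slc30a2 was also higher in males than in females (log2 difference 3.62, adjusted p = 2.28e-28), and its genotype difference was not tested within each sex. Of 8 genes of the p53 pathway, Trp53 itself and 7 of its targets or partners, which share that regulator with Cdkn1a, none passed for exercise with edgeR (2 at an unadjusted p under 0.05), and for time of day only Eda2r passed and was lower at ZT15 (−0.46, adjusted p = 0.0048). Ccng1 and Mdm2 were higher in HIF1α KO muscle by 0.28 (adjusted p = 0.00158) and 0.17 (adjusted p = 0.0628).

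None of 8 NF-κB genes passed for time of day, exercise, or genotype with edgeR, where 1, 2, and 0 had an unadjusted p under 0.05. Of 9 genes of phosphoinositide 3-kinase and insulin signaling, 2 were higher and 1 was lower at ZT15, and none passed for exercise or genotype (1 each at an unadjusted p under 0.05 with edgeR). Pik3ca, which encodes a catalytic partner of the Pik3r1 product, was lower at ZT15 by edgeR (−0.18, adjusted p = 0.00547), the opposite direction to Pik3r1. Irs1, the insulin receptor substrate, and Nedd4l, a ubiquitin ligase that Sgk1 phosphorylates, were higher at ZT15 by 0.32 (adjusted p = 0.0981) and 0.19 (adjusted p = 0.0619).

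Levels of the 10 genes were also set against each other across the 63 libraries, as a description, since the genes share the libraries, their depth, and their composition. Over the 45 pairs the median Pearson r of log2 CPM was 0.33, and 11 pairs were above 0.5. Mt1 and Mt2, neighbors on chromosome 8, had the highest value, with r = 0.93 and Spearman's rho = 0.94. It was 0.92 without the 2 libraries farthest in Mt1, between 0.92 and 0.98 within the 4 blocks, and 0.87 after each group's mean was subtracted. Fkbp5 and Cdkn1a had r = 0.72 (rho = 0.71, 0.70 after subtracting group means), and Tsc22d3 and Sgk1 had r = 0.67 (rho = 0.62, 0.64 after subtraction). For Nfkbia and Cebpd, r was 0.64 and rho 0.48, r was 0.48 without the 2 libraries farthest in Nfkbia, and it lay between 0.24 and 0.90 within blocks.

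The genes with the most similar profile over the 63 libraries, outside the 10, were also listed. For Fkbp5 they were Glul (r = 0.80), Ip6k3 (r = 0.69), and Plin4 (r = 0.69), and for Tsc22d3 they were Arrdc3 (r = 0.75), Ppp1r3c (r = 0.72), and Plekhf1 (r = 0.62). Maff was nearest to both Mt1 (r = 0.85) and Mt2 (r = 0.79), followed by Mafk (r = 0.81) and Adamts9 (r = 0.80) for Mt1 and by Adamts9 (r = 0.75) and Nr4a3 (r = 0.74) for Mt2. Arrdc3 was also nearest to Sgk1 (r = 0.69), before Arl4d (r = 0.59) and Mef2c (r = 0.58). Nfkbia was followed by Ddit4 (r = 0.78), Depp1 (r = 0.73), and S1pr1 (r = 0.67), and Cebpd by Klf6 (r = 0.73), Ddit4 (r = 0.73), and Slc10a6 (r = 0.69). Cdkn1a was nearest to Spsb1 (r = 0.74), Slc38a3 (r = 0.73), and Il6ra (r = 0.72), and Pik3r1 to Pnpla3 (r = 0.78), Dbt (r = 0.76), and Gm14319 (r = 0.75). Ddit4 and Glul are themselves on the list of other known glucocorticoid targets.

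Zbtb16 differed from the other 9 in that its level moved with library composition. Its nearest genes were Aff1, Bptf, and Chd7 (r = 0.92, 0.91, and 0.91). Its log2 CPM had r = 0.76 (rho = 0.69, 0.72 without the 2 most distant libraries) with the log2 share of counts on the mitochondrial rRNAs mt-Rnr1 and mt-Rnr2, where the other 9 genes had r between −0.25 and 0.24. The blocks of mouse numbers took 44.3% of its variance, and its median was 70.4 CPM in mice 17 to 32 against 115 to 126 CPM in the other blocks. The mitochondrial rRNA share itself had medians of 3.77% at ZT3 and 4.16% at ZT15. With that share in the model, the time of day difference of Zbtb16 was 0.27 (adjusted p = 0.0298), and with the block it was 0.36 (adjusted p = 0.00591).

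**Figure D5:**
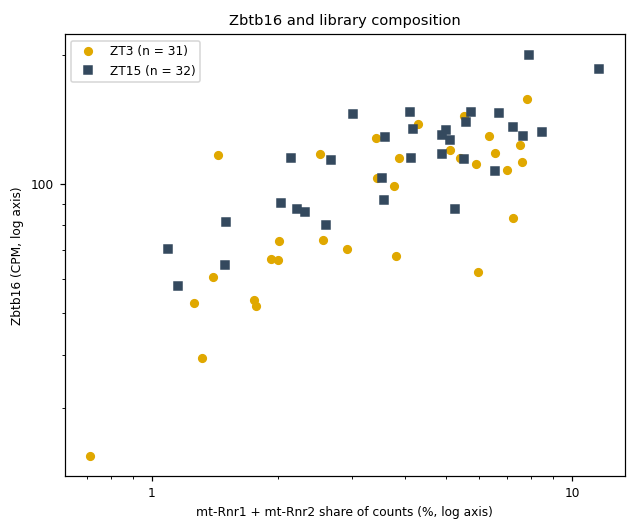
Zbtb16 level (CPM, log axis) against the share of counts on mt-Rnr1 and mt-Rnr2 (percent, log axis), 1 point per library, ZT3 in yellow (n = 31) and ZT15 in dark blue (n = 32). Zbtb16 is higher in libraries with a larger share (r = 0.76 on log2 scales), at both times of day.

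In the annotation (GENCODE M21, GRCm38) all 10 genes are protein coding. Mt2 (chromosome 8, 94172664 to 94173568) and Mt1 (chromosome 8, 94179082 to 94180327) lie next to each other on the plus strand, and Cdkn1a (chromosome 17, 29090976 to 29100727) and Fkbp5 (chromosome 17, 28399094 to 28517527) share a chromosome. Cebpd overlaps Spidr on the opposite strand, which had a mean of 58.7 counts per library against 158 for Cebpd, and Mt2 overlaps the antisense gene Gm45774 (3.54 against 267 counts). The strand setting of the counting is not given in the sources used here, so counts of Cebpd could include reads of its partner.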

How the data were processed

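Poly-A RNA of gastrocnemius muscle was sequenced from a strand-marking (TruSeq Stranded mRNA) library of each mouse. The authors deposited raw counts per gene, made with featureCounts from STAR alignments to mm10. Versions, annotation release, strand setting, and handling of shared reads are not given in the sources used here. Identifiers were matched to GENCODE M21 (55141 of 55401). The count test was edgeR 4.0.16 (R 4.3.3), with the filterByExpr filter at a minimum count of 10, TMM scaling, and a robust quasi-likelihood fit of group and sex over 63 libraries. The study used DESeq2 with the same threshold. Adjusted p is Benjamini-Hochberg over 15241 genes within each comparison, and called means under 0.1. Averages weight the 4 single comparisons equally. Intervals of 95% are normal. Log2 CPM used a prior count of 2. One CPM was 2.36 counts in the shallowest and 40.4 in the deepest library. Alternatives were DESeq2 1.42.0, RLE scaling, other filters, no sex term, all 64 libraries, blocks of 16 mouse numbers, the mitochondrial rRNA share, leaving out the 3 shallowest libraries, a threshold of 0.05, leaving out each library, and, chosen after seeing the data, leaving out mice 8 and 37. The fits were tested on simulated counts.

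The members and the lists were chosen with earlier results of these data known. From each list at most 5 called genes with the smallest p were named, and Nr3c1 in any case, and for each member the 3 genes with the highest correlation. The labels say each library is 1 mouse. No label says that mouse numbers mark a batch. No protein sequences were used here. The result of 1 marker gene is not reported here.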

Additional observations from a re-analysis of the deposited data

Results flagged for a closer look

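Within each group, the highest and the lowest library were compared with their neighbors, and a library was noted when its gap was large for the range of the group. Of 80 sets of a gene and a group, 17 held such a library, and in each case it was the highest. Chance gives about 1 in 20 sets for independent, normally distributed values, and these values are skewed and the genes share libraries, so the 2 shares cannot be compared. The 17 came from 6 libraries and 8 came from mouse 8 (sedentary fl/fl, ZT15, male). For mouse 8 the values were 119.1 CPM for Fkbp5 (next 82.8), 588.3 for Tsc22d3 (next 387.7), 128.5 for Mt1 (next 37.9), 73.8 for Mt2 (next 17.4), 19.5 for Cdkn1a (next 5.74), 303 for Sgk1 (next 196), 34.3 for Nfkbia (next 15.2), and 46.8 for Cebpd (next 11.4).

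Mouse 5 (sedentary fl/fl, ZT3, male) had 53.04 CPM of Mt1 (next 14.5), 31.7 CPM of Mt2 (next 7.73), and 19.6 CPM of Cebpd (next 10.95). Mouse 37 (exercised fl/fl, ZT15, male) had 26.7 CPM of Nfkbia (next 17.3) and 56.4 CPM of Cebpd (next 14.2). Mouse 29 (sedentary HIF1α KO, ZT15) had 23.4 CPM of Mt2 (next 12.0) and 9.09 CPM of Cebpd (next 6.63). Mouse 21 (sedentary HIF1α KO, ZT3) had 47.3 CPM of Mt1 (next 23.3), and mouse 34 (exercised HIF1α KO, ZT3) had 25.5 CPM of Cebpd (next 12.6). The cause was not tested.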

How the results depend on the processing

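The calls of Fkbp5, Tsc22d3, Cdkn1a, and Pik3r1 for time of day and of Fkbp5, Mt1, Mt2, and Pik3r1 for exercise held in all 63 fits that left out 1 library. Zbtb16 and Sgk1 for time of day lost the call in 34 and 20 of these fits, and Tsc22d3 for genotype in 21. Counts of called genes over these fits were 4 to 6 for time of day, 4 to 5 for exercise, and 0 to 2 for genotype on average, and in single comparisons 2 to 5 (sedentary fl/fl) and 1 to 3 (exercised fl/fl) for time of day, and 0 to 3 (fl/fl, ZT3), 0 to 1 (fl/fl, ZT15), and 0 to 1 (HIF1α KO, ZT3) for exercise. The single time of day comparison in sedentary fl/fl mice had 5 without mouse 5 and that in exercised fl/fl mice 1 without mouse 19. For exercise, fl/fl mice at ZT3 had 3 without mouse 5 and 0 without any one of mice 12, 13, 18, 22, 50, and 60, fl/fl mice at ZT15 had 1 without mouse 8, and HIF1α KO mice at ZT3 had 1 without mouse 8 or 21. The genotype average had 2 without mouse 9, which adds Nfkbia, and Nfkbia was also called without mouse 21.

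Without the sex term the counts were 1 (Fkbp5), 1 (Tsc22d3), and 0 for time of day in sedentary fl/fl, exercised fl/fl, and sedentary HIF1α KO mice. The count was 0 for exercise in fl/fl mice at ZT3, and Pik3r1 did not pass for exercise (0.24, adjusted p = 0.464). Over all 15241 genes the calls in these 4 single comparisons also fell, from 286, 180, 73, and 36 to 143, 109, 46, and 23. With no filter beyond 1 count the counts among the 10 were 2 and 1 for time of day in sedentary and exercised fl/fl mice. They were 0 for exercise in fl/fl mice at ZT3 and 0 for the genotype average. Of 35379 genes, 123, 104, 26, and 778 were then called in these 4 comparisons. The time of day average had 4 genes with no filter and 4 at 0.05 (Sgk1 and Zbtb16 lost in both), 5 without the sex term (Sgk1 lost, adjusted p = 0.1085), and 5 without the 3 shallowest libraries (Zbtb16 lost, adjusted p = 0.144). Over all genes the time of day average had 959 of 35379 with no filter and 1042 of 15241 without the sex term. Without the 3 shallowest libraries it had 1049 of 15264. At 0.05, exercise in fl/fl mice at ZT3 and the genotype average had 0 of the 10. The genotype average was also 0 with all 64 libraries, the block of mouse numbers, or the mitochondrial rRNA share. Over all genes the calls there were 1091 of 15085, 1132 of 15241, and 1213 of 15241. Exercise in fl/fl mice at ZT3 was 0 with the block (31 of 15241 genes called). DESeq2 gave 1 for exercise in HIF1α KO mice at ZT3 and 4 for time of day in sedentary fl/fl mice (Zbtb16 added). The block, the mitochondrial rRNA share, and at least 10 counts in every library each also gave 4 in sedentary fl/fl mice. Over all genes these 3 settings called 878 of 15241, 216 of 15241, and 260 of 8896. DESeq2 called 62 of 14351 and 452 of 14351 in its 2 comparisons. Without mice 8 and 37 the counts were 3 for the time of day average and 1 for exercise in HIF1α KO mice at ZT3 (Mt1, as with DESeq2). Of 15297 genes, 1163 and 36 were then called in these 2 comparisons. These values that did not pass turned sign without the 2 mice: time of day Mt1 −0.048, Mt2 −0.026, and Cebpd −0.24, genotype Mt1 0.012 and Cebpd 0.19. Leaving out single libraries also turned values that did not pass: for time of day the ranges were −0.040 to 0.33 for Mt1, −0.040 to 0.51 for Mt2, and −0.053 to 0.21 for Cebpd, and for genotype −0.013 to 0.061 for Fkbp5, −0.32 to 0.0043 for Mt1, and −0.25 to 0.012 for Cebpd. Requiring 10 counts in every library left Mt2, Cdkn1a, and Cebpd untested. No paired analysis was possible because each mouse number is one animal in one group. The cause of these changes was not tested. In the shallowest library 1 CPM was 2.36 counts, which limits Cdkn1a, Mt2, and Cebpd.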
